A study of Mus musculus with 6 samples.

Results

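The Esrrb gene encodes ESRRB, the nuclear receptor whose binding was mapped here, so regions at this gene are places where the protein was found on the chromatin of its own gene. ESRRB regions were taken as members when a summit lay within 100 kb of the Esrrb gene span in mm10, which gave 13 of 13767 regions in 2iL, 4 of 10970 at 48 h and 4 of 7018 at 96 h. They held 23, 7 and 5 summits. The assay was ChIP-seq, in which chromatin fragments bound by an antibody, here a mouse monoclonal anti-Esrrb, are sequenced, and the cells were E14, a mouse embryonic stem cell line. Cells were kept in N2B27 medium with 2iL, that is 3 µM CHIR99021 to block GSK3, 1 µM PD0325901 to block MEK, and LIF, a cytokine that sustains self-renewal, or were taken 48 h and 96 h after 2iL was replaced by plain N2B27 medium. Each condition had 1 antibody library and no replicate, so no test between conditions was possible, and intervals below cover counting error only. Neither RNA nor protein was measured in these files, so the state of the cells and the output of the Esrrb gene were not checked.

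ESRRB is an orphan nuclear receptor that binds DNA mainly as a single molecule, at the half-site AGGTCA extended on its left side (TNAAGGTCA). In naive mouse embryonic stem cells it works beside Nanog, Klf and Tfcp2l1 factors, and its gene is among those that the repressor TCF7L1 holds down until GSK3 is inhibited. Esrrb expression is known to decline as cells leave the naive state. The comparison over time asks which ESRRB regions at the gene were still called once 2iL was gone.

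The Esrrb span covers chromosome 12, 86361117 to 86521628 (160.5 kb, plus strand), and RefSeq gives it 2 gene starts, 60.5 kb apart. No ESRRB region of any library overlapped the promoter window of either start, which runs from 250 bases before to 50 bases after it. The share of all promoter windows that a region overlaps is not given here, so this absence cannot be called particular to Esrrb. Both windows are shown because no region was called at either gene start, and the capital letter marks that start. The sequences are from RefSeq (GRCm38.p6, plus strand), at chr12:86360867-86361166 for the upstream start and chr12:86421394-86421693 for the downstream start.

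Esrrb upstream promoter: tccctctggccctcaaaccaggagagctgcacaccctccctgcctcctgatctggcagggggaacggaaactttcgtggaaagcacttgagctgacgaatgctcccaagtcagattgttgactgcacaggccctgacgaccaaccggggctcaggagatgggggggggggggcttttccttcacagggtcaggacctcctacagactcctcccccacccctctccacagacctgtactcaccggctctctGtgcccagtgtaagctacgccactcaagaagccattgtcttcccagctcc

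Esrrb downstream promoter: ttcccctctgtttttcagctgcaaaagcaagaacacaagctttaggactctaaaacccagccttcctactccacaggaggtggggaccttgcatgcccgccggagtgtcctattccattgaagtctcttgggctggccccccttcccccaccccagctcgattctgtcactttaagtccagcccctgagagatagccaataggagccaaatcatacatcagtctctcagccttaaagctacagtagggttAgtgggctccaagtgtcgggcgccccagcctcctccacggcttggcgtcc

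Neither window held TNAAGGTCA or its core AAGGTCA, which overlap each other, on either strand. Among 32851 promoter windows of the same length, 1.28% held the longer motif and 4.72% the core. Neither window held ATCAAAG (the TCF site, in 3.73% of all windows), ATGCAAAT (the POU octamer, in 1.74%) or GGGNGTGG (a KLF site, in 17.6%). The region nearest to the upstream start had its highest summit 4.48 kb inside the gene in 2iL, 4.47 kb at 48 h and 4.50 kb at 96 h. The summit nearest to the downstream start lay 14.0 kb from it in 2iL, and 56.1 kb and 56.0 kb from it at 48 h and 96 h.

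In 2iL, ESRRB regions lay unevenly along the gene, with summits from 4.48 to 159.1 kb from the upstream start. Most lay in the downstream part of the gene, and none between 25.0 and 74.5 kb. Of the 13 regions, 12 lay inside the span and 1 lay 58.1 kb upstream of it, and none lay in the 100 kb downstream. The upstream region (86302625 to 86303247, fold 5.32) lies between Gpatch2l, the nearest protein-coding neighbour, and the non-coding RNA gene Gm32666. It was the outermost member in 2iL, and the nearest 2iL regions beyond the 100 kb limit lay 196.4 kb upstream (fold 7.33) and 133.0 kb downstream (fold 4.63). The fold, the authors' enrichment of reads at the summit over the local background, ran from 3.36 to 17.9 with a median of 5.32, against a median of 5.88 over the whole 2iL list. Only 4 of the 13 stood above that list median. Each fold is over the background of its own library, so folds and their ratios between libraries below are descriptions of these libraries and not tested changes.

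A pair of adjacent regions, with summits 19.8 and 17.1 kb before the end of the gene, stood far above the other 11. The stronger (86501273 to 86502844, summit 140.7 kb from the upstream start) had 260 reads at its summit over a background of 13.6, a fold of 17.9, and ranked 198 in the 2iL list. Its neighbour (86502976 to 86505046, summit at 143.4 kb) had 215 reads over 11.7, a fold of 17.0, and ranked 255. The third of this group (86498246 to 86499488, summit at 137.7 kb) had 87 reads over 14.8 and a fold of 5.57, close to the list median. The 3 regions lay within 6.80 kb.

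The other 9 regions inside the gene had folds of 3.36 to 7.03 in 2iL. The region nearest the upstream start (86365047 to 86365911) had 43 reads over 6.16 and a fold of 6.14. The strongest of the 9 lay at 94.1 kb (86454788 to 86456031), with 97 reads over 12.9 and a fold of 7.03. Further along, 4 regions between 102.1 and 118.0 kb had folds of 4.98, 5.07, 5.04 and 3.67. The last of them (86477679 to 86479475) was a broad, low region of 1797 bp with 5 summits, at folds of 2.00 to 3.67. The weakest lay at 74.5 kb (fold 3.36) and 25.0 kb (fold 3.53), and 1 more lay 1.45 kb before the end of the gene (fold 5.73).

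**Figure D1:**
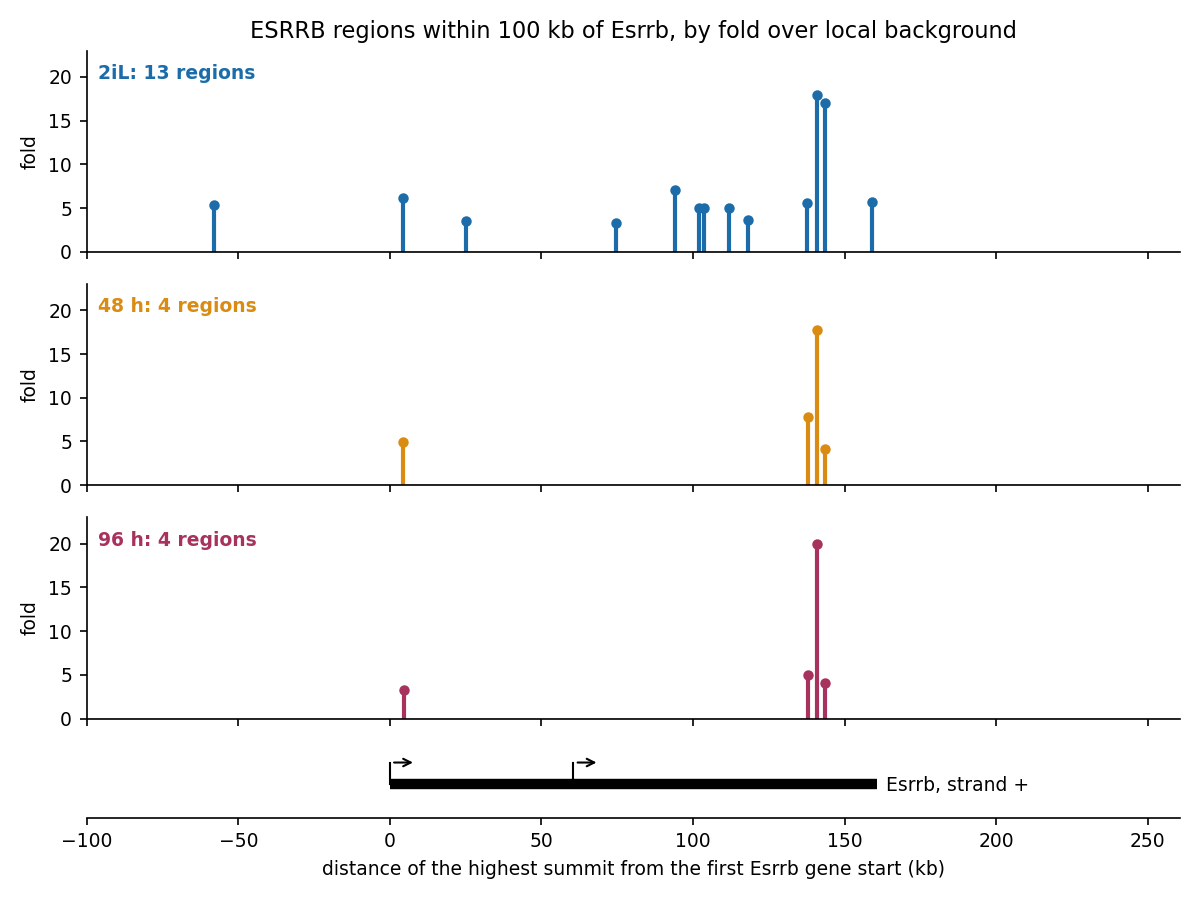
Height of each ESRRB region within 100 kb of Esrrb (vertical axis, fold over local background) against the distance of its highest summit from the upstream gene start (horizontal axis, kb), in 2iL (top), at 48 h and at 96 h. Black bar, the gene; arrows, its 2 gene starts. The 13 regions of 2iL run from 58.1 kb upstream to the end of the gene, and the 4 regions at 48 h and at 96 h lie at the same 4 places, 1 near the upstream start and 3 near 140 kb.

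At 48 h and at 96 h the same 4 places were called, and all 4 regions of each later list overlapped a 2iL region (95% interval of the share 39.8 to 100%). Over the whole lists 63.5% of 48 h regions and 69.5% of 96 h regions did. The 4 places were the region near the upstream start and the group of 3 near 140 kb. Of the 13 regions of 2iL, 4 (30.8%, exact Clopper-Pearson 95% interval 9.09 to 61.4) were called at 48 h, against 50.7% of all 2iL regions. The same 4 were called at 96 h, against 35% of all, and at both later times, against 31.3%. The other 9 (69.2%, 38.6 to 90.9) were called at neither, against 45.6% of all 2iL regions. Each of these 4 shares of the whole list lies inside the interval at Esrrb. The intervals treat the 13 regions as independent draws, which regions of a single gene need not be. They are descriptions and not a test, so no difference from the list is claimed.

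The 9 regions not called later were the upstream one, the 7 between 25.0 and 118.0 kb, and the one at the end of the gene. Their 2iL folds of 3.36 to 7.03 (median 5.04) compare with a median of 5.19 for the 6277 regions called at neither later time over the whole list. The 4 called later had 2iL folds of 5.57 to 17.9. When the 2iL list was split by fold into 5 equal groups (quintiles), regions of the same quintiles as those at Esrrb were called at neither later time at shares that add up to 6.47 of 13. ESRRB too weak to be called is not seen in such lists, and less binding per cell cannot be told apart from binding in fewer cells. With each list shortened to its 7018 strongest regions, which drops 2iL regions with a fold under 5.82, 4 regions of 2iL were left, of which 2 were called at 48 h, 3 at 96 h and 1 at neither.

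The strongest Esrrb region kept a similar fold in each library. The region at 140.7 kb had folds of 17.9 in 2iL (95% counting interval 15.8 to 20.2), 17.8 at 48 h (15.9 to 19.7) and 19.9 at 96 h (17.0 to 23.2), and these intervals overlap. It ranked 198 of 13767, 111 of 10970 and 63 of 7018. Its summit held 260, 347 and 164 reads over local backgrounds of 13.6, 18.6 and 7.29 reads. The fold at 96 h was 1.11 times that in 2iL (0.906 to 1.35), and the median over the 1645 regions of the strongest 2iL quintile by fold called in every library was 0.627. On another scale the picture differed. Divided by the lowest background of each library (5.04, 8.09 and 5.84 reads for 2iL, 48 h and 96 h), its reads came to 51.5, 42.9 and 28.1, and the value at 96 h was 0.544 times that in 2iL (0.445 to 0.665). The median of its quintile on this scale was 0.528. The local background was 2.69, 2.30 and 1.25 times the lowest one, for 2iL, 48 h and 96 h.

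The neighbour at 143.4 kb did not keep its fold. It had folds of 17.0 in 2iL (14.8 to 19.4), 4.10 at 48 h (3.20 to 5.18) and 4.07 at 96 h (2.79 to 5.75). Its summit held 215, 68 and 30 reads over backgrounds of 11.7, 15.8 and 6.63. The interval in 2iL lies clear of both later ones. The fold at 48 h was 0.241 times that in 2iL (0.179 to 0.315), against a median of 0.760 for its quintile. Of the 1644 other regions of that quintile called in every library, 8 had a ratio as low. Regions absent from a later list were not compared, so counts of this kind leave out those that may have fallen furthest. Of the 2754 regions in the quintile, 59.7% were found again in each later list and 20.1% in no later list. The quintile spans 2iL folds of 8.71 to 48.2, so it is not closely matched to a fold of 17.0. For the region at 143.4 kb the ratio of 96 h to 2iL was 0.239 (0.153 to 0.342), with 20 others as low. On the scale of the lowest background the ratios were 0.197 (0.148 to 0.260) and 0.120 (0.0793 to 0.177), with 11 and 5 others as low. Its interval measured 2071 bp in 2iL, 1781 bp at 48 h and 555 bp at 96 h. The ratios to 2iL were 0.86 at 48 h and 0.268 at 96 h. Over all regions called in every library the medians were 1.02 and 0.844.

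Within a library, depth cancels when the neighbours are set against each other. The reads at 140.7 kb were 1.21 times those at 143.4 kb in 2iL, 5.10 times at 48 h and 5.47 times at 96 h. The corresponding ratios of folds were 1.05, 4.33 and 4.90. The gap between the neighbours was thus already wide at 48 h.

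**Figure D2:**
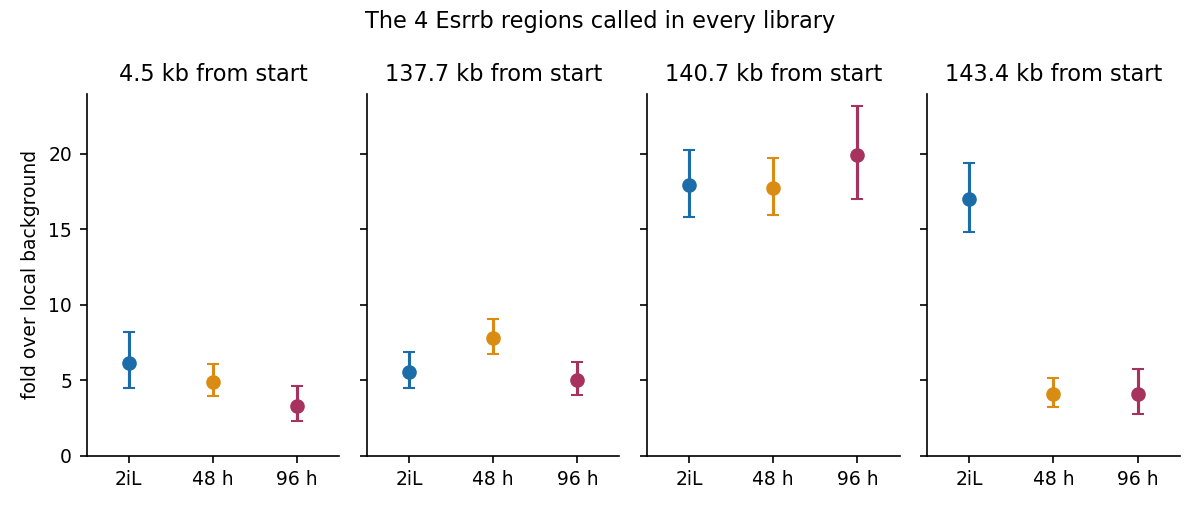
Fold over local background (vertical axis) by condition (horizontal axis) for the 4 Esrrb regions called in every library, each panel headed by its distance from the upstream gene start in 2iL. Points are the single library of each condition and bars are exact Poisson 95% intervals of the reads, for counting error only. The region at 140.7 kb stays at 17.8 to 19.9, while that at 143.4 kb is at 17.0 in 2iL and at 4.10 and 4.07 later.

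**Figure D3:**
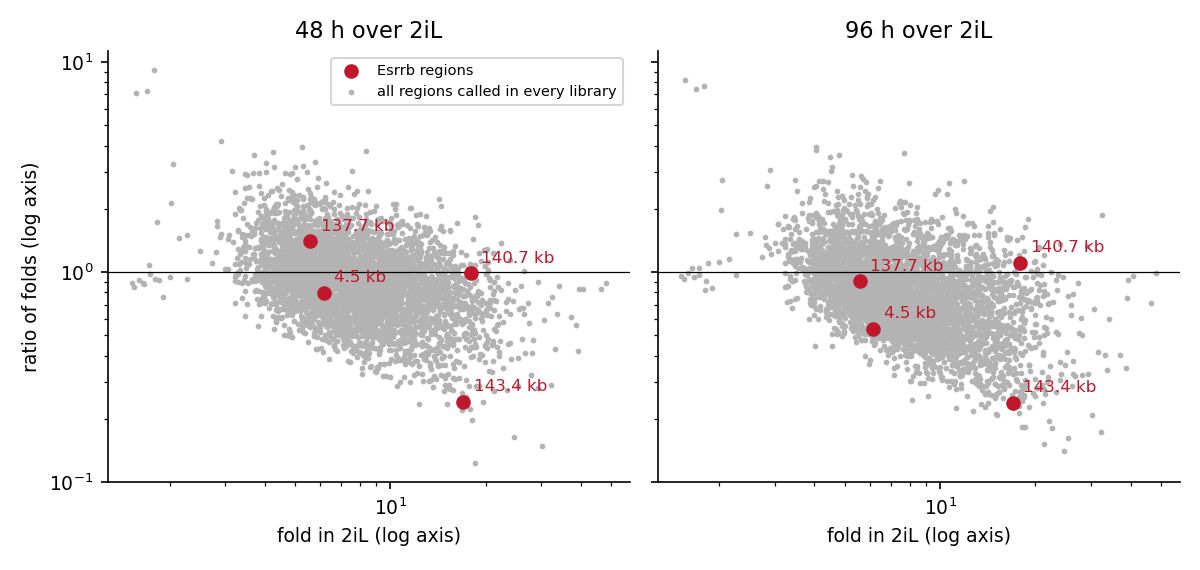
Ratio of the fold at 48 h to that in 2iL (left) and at 96 h to that in 2iL (right), on a log axis, against the fold in 2iL, on a log axis. Red points are the 4 Esrrb regions, named by their distance from the upstream gene start, and grey points are all 4313 regions of 2iL called in every library. The region at 143.4 kb lies at the lower edge, at 0.241 and 0.239, and that at 140.7 kb lies near 1.

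The remaining shared regions moved less than the one at 143.4 kb. The region at 137.7 kb had folds of 5.57, 7.81 and 5.03 over the 3 conditions in turn, with 87, 179 and 84 reads. The fold at 48 h was 1.40 times that in 2iL (1.09 to 1.84), against a median of 0.996 for its quintile, where 81.7% of regions had a lower ratio. On the scale of the lowest background it was 1.28 times (0.988 to 1.68), an interval that includes 1. Its interval measured 2533 bp at 48 h, against 1243 bp in 2iL, a ratio of 2.04 where the median of all regions called in every library was 1.02. At 96 h it measured 1924 bp.

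The region 4.48 kb from the upstream start had folds of 6.14, 4.91 and 3.31 with 43, 85 and 33 reads. The fold at 48 h was 0.798 times that in 2iL (0.553 to 1.19), and on the scale of the lowest background the direction turned, to 1.23 times (0.844 to 1.82). Both intervals include 1. At 96 h the ratios to 2iL were 0.539 (0.329 to 0.862) by fold and 0.662 (0.408 to 1.07) by reads over the lowest background. The medians of its quintile on these 2 scales were 0.846 and 0.779, and 5.86% and 33.5% of regions had a lower ratio.

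Summits stayed close to their 2iL positions. Near the upstream start the summit at 48 h lay 8 bp and that at 96 h 23 bp from the 2iL summit. At 143.4 kb the distances were 25 and 53 bp, and at 137.7 kb they were 67 and 82 bp. For the strongest region they were 52 bp at 48 h and 140 bp at 96 h. Over all 4313 regions called in every library the median distance was 24 bp at 48 h and 29 bp at 96 h, and 90.6% had a smaller distance than 140 bp at 96 h. Weaker summits differed more between libraries. At 48 h the region at 137.7 kb held 2 side summits, at 136.3 kb (fold 2.34) and 136.8 kb (fold 1.81), which it did not have in 2iL. The summit at 136.8 kb had a 96 h summit 23 bp away (fold 1.93), and the nearest 2iL summit lay 963 bp away. Both were close to background, with 27 reads over 14.5 at 48 h and 14 over 6.78 at 96 h. Their −log10 q-values were 0.868 and 0.329, so no weight is put on this difference from 2iL. In the region at 143.4 kb a side summit at 142.4 kb had a fold of 1.89 at 48 h and 2.60 in 2iL, 29 bp apart, and no summit was called there at 96 h.

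**Figure D4:**
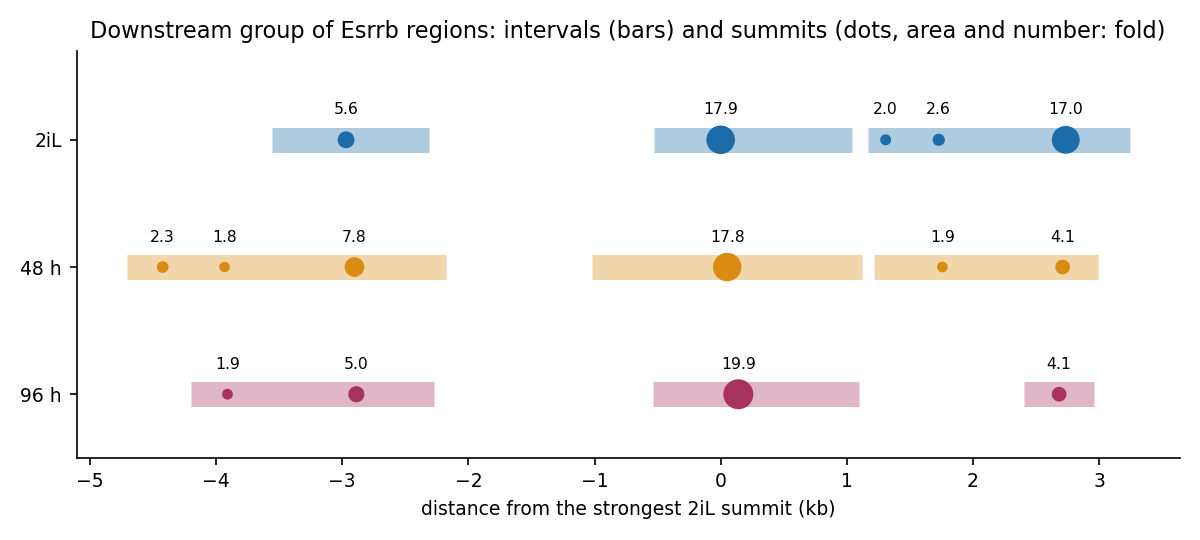
Intervals (bars) and summits (dots, with area and number giving the fold) of the 3 regions near 140 kb in 2iL (top), at 48 h and at 96 h, against the distance from the strongest 2iL summit (kb). The left interval is wider at 48 h and 96 h than in 2iL, the middle summit keeps a fold of 17.8 to 19.9, and the right interval is narrowest at 96 h.

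Esrrb held more 2iL regions than most genes. Of 21900 protein-coding genes, 36 others had at least 13 regions within 100 kb of their span, where the median was 1. Inside the span Esrrb held 12, and 2 other genes held at least as many: Magi1, a scaffold protein gene, with 20 in 608.5 kb, and Etl4, with 13 in 900.3 kb. Per length that came to 7.48 regions per 100 kb of gene in Esrrb, 3.29 in Magi1 and 1.44 in Etl4. Magi1 and Etl4 are far longer and were named for their counts. Shorter genes were not compared by density, so the density at Esrrb cannot be called high for a gene. Among 791 other genes of 0.8 to 1.25 times the Esrrb length, the median was 1 and the highest was 10. Of the 185 other genes with at least 10 regions in 2iL, 7 (3.78%) had as high a share called at neither later time as the 69.2% at Esrrb, and the median share was 40%. These genes were not matched to Esrrb for fold. Regions of the same quintiles of fold as those at Esrrb were called at neither at a share of 49.8%, against 45.6% of all 2iL regions. Neighbouring genes share regions, so these genes are not independent.

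**Figure D5:**
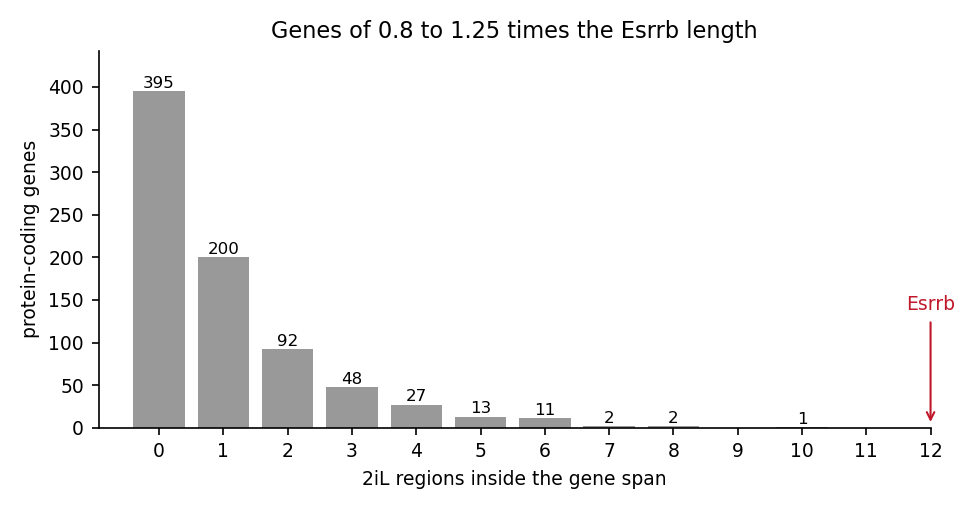
Number of protein-coding genes (vertical axis) by the number of 2iL regions inside the gene span (horizontal axis), for the 791 other genes of 0.8 to 1.25 times the Esrrb length. The arrow marks Esrrb, with 12 regions, and the highest other gene has 10.

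The genes whose region counts over the 3 libraries were nearest to the 13, 4 and 4 at Esrrb were Lpp (13, 4 and 3), followed by Rbfox1, Slc9a8, Sbno2 and Pop5 (each 12, 5 and 4). The Euclidean distance over the 3 counts was 1.00 for Lpp and 1.41 for the others. Of their 2iL regions 2 at Lpp, 2 at Rbfox1, 2 at Slc9a8, 3 at Sbno2 and 3 at Pop5 were called at both later times, against 4 at Esrrb. Called at neither were 8 of 13 at Lpp, 8 of 12 at Rbfox1, 7 of 12 at Slc9a8 and at Sbno2 and 6 of 12 at Pop5, close to the 9 of 13 at Esrrb. Where genes tied in distance, those with the nearer number of 2iL regions called at neither later time were taken first. This closeness was thus partly set by the choice of genes.

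A list of 18 genes that act with ESRRB or on its gene, or belong to its receptor family, had fewer regions each. None had as many as 13 regions in 2iL within 100 kb, and their medians were 6, 5 and 3 regions for 2iL, 48 h and 96 h. The window searched grows with the gene span, which is 160.5 kb for Esrrb. Only Tcf7l1 (162.7 kb) and Esrrg (606.4 kb) of the list are longer, so gene length is not matched here. Of the list, 10 genes had fewer regions at 48 h and 13 at 96 h, and 2 had more at 48 h. Over all genes with a 2iL region, 55.7% had fewer at 48 h and 74.4% at 96 h. The 112 regions of 2iL near the list were called at neither later time in 35.7% of cases (26.9 to 45.3), against 45.6% of all 2iL regions. The share called at neither was higher than the 69.2% at Esrrb for 3 genes of the list: Nr5a2, a nuclear receptor gene, with 4 of 5 regions, and Stat3 and Esrrg, with their only region. At Klf4 it was 4 of 6, and at Prdm14 4 of 7. At Nanog, which encodes a homeobox factor known to activate Esrrb, 2 of 10 regions were called at neither. At Tcf7l1, the repressor gene named above, 4 of 10 were. Ncoa3, which encodes a coactivator of ESRRB, had 10, 8 and 10 regions, and 7 of those in 2iL were called again both times. Among the receptor's relatives, Esrra had 7, 5 and 2 regions, and Esrrg, a gene of 606.4 kb, had 1 per library, and its 2iL region overlapped neither later one. A higher fold in 2iL than the 17.9 at Esrrb stood near 3 genes of the list, Tcf7l1 (18.4), Klf4 (18.5) and Prdm14 (21.8).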

How the data were processed

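The files used here are 3 peak lists, 1 per antibody library, and the 3 input libraries were not used here. Per the submitters' processing notes, bcl2fastq 2.20.0.422, BWA, SAMtools, Picard and MACS2 were used with build mm10. What each tool did, the other versions and how peaks were cut off stay unstated in the labels. Each deposited line is a summit in an interval, with the authors' score (capped at 1000, not used here), fold ratio over local background, −log10 p-value, −log10 q-value and summit offset.

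A region is 1 interval, and its fold is that of its highest summit. An overlap of 1 bp or more made regions of different libraries shared. Fold and −log10 p from the deposited lists together gave the reads at each summit and the local background behind it (1 is added to each in the fold), and all 3 lists gave whole reads for 100% of summits within 0.05 reads. The lowest background depends on depth and also on fragment length, and total read counts were not used here. Relative to 2iL it was 1.60 times as high at 48 h, and 1.16 times as high at 96 h. The read and overlap calculations were tested on simulated data. Intervals are exact at 95% for read counts and for shares, and treat reads, or regions in a share, as independent. For folds and ratios the local or lowest backgrounds were held fixed, so the error of the backgrounds is left out. Genes and promoters came from RefSeq GRCm38.p6, with gene spans and starts but no exons, so exons and introns were not told apart. No genome sequence was used, so region sequences and motifs in regions are not given.

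Named genes were, by rule, Esrrb and genes within 100 kb of it, 18 regulators, partners and relatives, and up to 5 genes with the nearest counts, on other chromosomes. Ties in distance went to the nearer number of 2iL regions called at neither later time, then to the higher 2iL fold. Magi1 and Etl4 were chosen after their values were seen. The members, lists and rule were chosen with earlier results of these data known. Calculations used Python 3.11.15 with numpy 2.4.6, pandas 2.3.3 and scipy 1.17.1.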

Additional observations from a re-analysis of the deposited data

How the results depend on the processing

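The count of Esrrb regions depended on list length. With lists of equal length by fold, 4 regions were left in 2iL, 3 at 48 h and 4 at 96 h. Of those in 2iL, 2 had a 48 h region, 2 had one at both times and 1 had none later, and 2 of the 48 h regions had one in 2iL. When the overlap had to cover 50% or more of each of the intervals, 2 of the 13 had a match at both times. A window of 50 kb, the gene span alone, summits with q of 1e-05 or less, and summits within 200 bp in place of overlap kept each count within 1.5 times. The median fold of the 4 regions called in every library (11.6, 6.36 and 4.55 in 2iL, at 48 h and at 96 h) depended on the summit used: with the median over each region's summits it was 4.86, 3.95 and 3.77. The strongest region has 1 summit, so its folds did not depend on that choice. Reads over the lowest background of the library, a scale added after seeing the data, are given beside the folds above. Motif counts in summit windows were not run, because no genome sequence was used. No paired analysis was possible because each condition had 1 library. With 30 to 347 reads at the highest summit of a region, the weakest regions have the widest counting intervals for their size.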
